A study of Mus musculus with 21 samples.

Results

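Skeletal muscle of aged mice was compared between 5 and 3.5 days post-injury (dpi) after notexin, to see how cell type composition, RNA content per cell and the classes of RNA in each cell type differed. The comparison took every mouse sampled at either time, 3 at 5 dpi and 4 at 3.5 dpi of the 21 mice in the series, with 16448 and 16403 of its 87822 cells. Each mouse gave 1 library, and the mouse was the unit throughout. All 7 mice were female C57Bl/6J animals of 20 months whose tibialis anterior muscle had been injected with notexin, a snake venom phospholipase that destroys myofibers. They differed by design only in the day of collection, with no other treatment or allele in either group. The whole muscle was dissociated with no sorting step and loaded on 10x Chromium v3 chips, which tags each captured transcript with a unique molecular identifier (UMI). The time series ran over 6 time points from uninjured muscle to 7 dpi, with a single injury model and age. For each cell, the deposited tables gave the numbers of UMIs and genes, the percent of UMIs from 11 gene classes, and a cell type from each of 3 integration methods. Levels of single genes were not analysed here, so the cell type names could not be checked against their markers.

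After a toxin injury, monocytes enter the muscle, clear debris and mature into macrophages that support repair. Muscle stem cells (MuSCs) leave quiescence, divide as myoblasts and then fuse into new fibers, while part of them returns to quiescence. Fibro-adipogenic progenitors (FAPs) are the mesenchymal cells that build matrix and support MuSCs, and lymphocytes arrive later than the first myeloid cells.

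Depth and recovery differed between the mice. Summed UMIs per mouse ran from 27305762 to 70730171. Mean reads per cell were 55808, 67365, 30251 and 34070 in 3.5 dpi mice A to D, and 31101, 20921 and 65848 in 5 dpi mice A to C. The groups overlapped in reads per cell and in sequencing saturation, which was 33.5% to 48.0% at 3.5 dpi and 33.1% to 62.9% at 5 dpi. The percent of reads that lay in cells did not overlap, at 94.2% to 94.8% at 3.5 dpi against 85.7%, 86.7% and 77.6% at 5 dpi. Median UMIs per cell were 14161, 14614, 8875 and 10696 at 3.5 dpi and lower in all 5 dpi mice, at 7424, 5107 and 7630. The estimated ambient RNA was 1.80% to 4.70% at 3.5 dpi and 2.80% to 6.2% at 5 dpi. Over the 21 pairs of the 7 libraries, 1 to 16 cell barcodes were shared, so no library was a copy of another.

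Immune cells made up 72.5%, 71.7%, 81.6% and 78.6% of the labelled cells in 3.5 dpi mice A to D, and 74.6%, 49.5% and 39.6% in 5 dpi mice A to C. The 5 dpi mice thus ran from the level of the 3.5 dpi mice to well below it, and the groups overlapped through mouse A. The difference in means was -21.5 percentage points and was not past the threshold in an exact permutation test (two-sided p = 0.0857), in which the smallest p for 4 against 3 mice is 0.0286. The comparison was defined on shares within immune and within non-immune cells. The 10 immune types were thus expressed as percent of the immune cells of a mouse, and the 13 other types as percent of its non-immune cells. A share is relative to the other types with the same denominator, so a lower number of cells of a type and a higher number of the others cannot be told apart here.

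Of the 23 Harmony cell types, 4 (17.4%) changed their share at an adjusted p under 0.05 in a limma fit over all types, and all 4 were among the 10 immune types (40%). T cells, NK cells and dendritic cells rose (30% of the immune types) and patrolling monocytes fell (10%). The shares of 7 types (30.4%) did not overlap between the groups, 3 of them higher and 4 lower at 5 dpi. Of these, 6 were immune (60% of the immune types), 3 higher (30%) and 3 lower (30%).

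T cells, the antigen-specific lymphocytes, were 4.29%, 4.31%, 5.15% and 1.53% of immune cells in 3.5 dpi mice A to D. They were 17.1%, 26.6% and 14.9% in 5 dpi mice A to C. Every 5 dpi mouse was thus above every 3.5 dpi mouse, with means of 19.5% ± 6.22 (SD, n = 3) against 3.82% ± 1.58 (n = 4), a ratio of 5.11 (adjusted p = 0.00101, limma). NK cells, innate lymphocytes that kill stressed cells, were 0.502%, 0.546%, 3.05% and 0.339% at 3.5 dpi and 7.64%, 9.55% and 9.11% at 5 dpi. Mouse C stood apart within the earlier group but remained below all later mice. The difference was 7.66 percentage points (adjusted p = 0.00101, limma). In 3.5 dpi mice A, B and D the NK label held 11, 10 and 10 cells, and BBKNN kept the name for 72.7%, 40% and 100% of them. B cells, the antibody lineage, were 0.365%, 0.273%, 0.587% and 1.42% at 3.5 dpi and 1.16%, 0.814% and 0.891% at 5 dpi, and did not pass the threshold (adjusted p = 0.741, limma). They were 8, 5, 31 and 42 cells at 3.5 dpi, of which BBKNN kept the name for 37.5%, 40%, 19.4% and 100%. At 5 dpi it kept it for 97.7%, 78.8% and 100%, and the part of this mix in the result was not tested. The 3 lymphocyte types together went from 5.59% ± 2.30 of immune cells at 3.5 dpi (n = 4) to 29.2% ± 6.70 at 5 dpi (n = 3). NK cells were 10.5% to 37.2% of the T and NK cells at 3.5 dpi and 26.4% to 38.0% at 5 dpi, which overlapped. In uninjured muscle, T cells were 17.5% ± 8.14 (n = 4) of a much smaller number of immune cells.

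Dendritic cells, which take up antigen and present it to T cells, were 4.29%, 4.26%, 7.87% and 5.26% of immune cells at 3.5 dpi. They were 11.5%, 9.77% and 13.8% in 5 dpi mice A to C. The groups did not overlap and the mean rose by 6.26 percentage points (adjusted p = 0.0136, limma), the smallest of the 4 calls. Without 3.5 dpi replicate B, 5 dpi replicate A or 5 dpi replicate C the adjusted p from limma was 0.0507, 0.0520 and 0.0523, over a range of 0.00448 to 0.215 across all alternatives. The share was higher at 5 dpi in all 20 of these settings, but the call passed in only 12 of them. With all cells as denominator the rise was 2.00 percentage points (adjusted p = 0.215, limma). The call was also lost with a centred log ratio (0.157), with all 21 mice in the fit (0.179) and with the replicate block (0.0666, limma).

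Patrolling monocytes carry the authors' name for this label, which was not checked here against markers. These cells were 35.5%, 37.6%, 32.1% and 33.8% of immune cells in 3.5 dpi mice A to D. They were 15.9%, 15.3% and 15.8% in 5 dpi mice A to C, within 1 percentage point of each other. They fell by 19.1 percentage points (adjusted p = 8.45e-05, limma), from 34.7% ± 2.33 (n = 4) to 15.7% ± 0.329 (n = 3). Over the whole course these cells were 0.660% ± 0.877 of immune cells in uninjured muscle, 16.0% ± 3.01 at 1 dpi, 36.0% ± 3.19 at 2 dpi and 9.13% ± 3.86 at 7 dpi, so their highest levels lay at 2 and 3.5 dpi.

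Inflammatory monocytes were 9.49%, 10.4%, 12.9% and 12.8% at 3.5 dpi and 9.25%, 7.06% and 8.81% at 5 dpi. The groups did not overlap, by a narrow margin between mouse A of each day, and the adjusted p from limma was 0.201. Over the alternatives it ran from 0.0386 to 0.867, and 2 of 20 settings passed. Cxcl10+ monocytes, marked by an interferon-induced chemokine, were 5.34%, 3.98%, 3.31% and 3.77% against 3.33%, 2.94% and 4.06%, which overlapped (adjusted p = 0.741, limma). Together the 3 monocyte types were 50.2% ± 1.49 of immune cells at 3.5 dpi (n = 4) and 27.5% ± 1.91 at 5 dpi (n = 3).

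The M2 macrophages, a name for macrophages of the repair phase, carried 2 labels that differ by the fractalkine receptor gene Cx3cr1. The Cx3cr1_lo cells were 19.4%, 19.2%, 15.5% and 18.8% of immune cells at 3.5 dpi and 14.8%, 12.7% and 15.3% at 5 dpi. The groups did not overlap, but mouse C at 3.5 dpi lay beside the 5 dpi mice, and the difference of -3.96 percentage points did not pass the threshold (adjusted p = 0.163, limma). The Cx3cr1_hi cells were 20.0%, 18.3%, 17.7% and 20.9% at 3.5 dpi and 18.0%, 13.8% and 16.6% at 5 dpi, which overlapped (adjusted p = 0.313, limma). Each of the 2 labels passed in 1 of 20 settings, over ranges of 0.0142 to 0.814 for Cx3cr1_lo and 0.0378 to 0.867 for Cx3cr1_hi cells. The Cx3cr1_hi label took 51.4% ± 2.06 of the M2 macrophages at 3.5 dpi and 53.0% ± 1.60 at 5 dpi. Neutrophils, the first granulocytes to enter injured tissue, were 0.867%, 1.20%, 1.80% and 1.43% of immune cells at 3.5 dpi and 1.35%, 1.46% and 0.693% at 5 dpi (adjusted p = 0.890, limma).

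**Figure D1:**
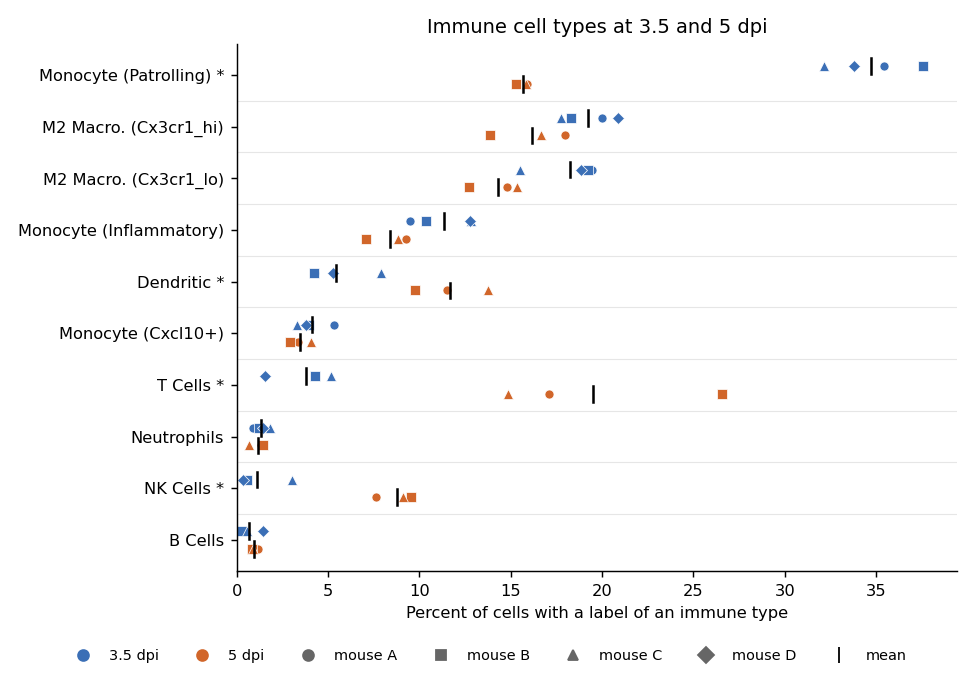
Percent of the immune cells of each mouse (horizontal axis) that carried each of the 10 immune Harmony labels (vertical axis), with 1 symbol per mouse, colour for the day and a bar at the group mean; a star marks an adjusted p under 0.05 in limma. T cells reach 14.9% to 26.6% at 5 dpi against at most 5.15% at 3.5 dpi, and patrolling monocytes lie near 15.7% against 32.1% or more.

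The names of the myeloid cells depended on the integration method. Among the patrolling monocytes of Harmony, averaged over mice, BBKNN kept that name for 71.5% at 3.5 dpi and to 38.7% at 5 dpi, and named 0.774% and 41.6% of them Cx3cr1_hi M2 macrophages. Of the Cx3cr1_lo M2 macrophages of Harmony, BBKNN named 12.9% and 46.0% Cx3cr1_hi. With BBKNN labels, Cx3cr1_hi M2 macrophages stood at 27.4% ± 7.82 of immune cells at 3.5 dpi (n = 4) and 39.6% ± 5.32 at 5 dpi (n = 3), the opposite direction to Harmony, with no overlap between the mice but not past the threshold (adjusted p = 0.0992, limma). Patrolling monocytes fell with BBKNN labels, from 34.5% ± 5.73 to 6.45% ± 2.21 (adjusted p = 0.000333, limma). Scanorama gave that name to a much wider class, 79.9% ± 4.49 of immune cells at 3.5 dpi and 53.1% ± 3.75 at 5 dpi (adjusted p = 0.000560, limma), which is not the same population. With BBKNN, infiltrating monocytes, a name that Harmony did not use, also fell, from 12.9% ± 1.44 to 3.43% ± 0.753 (adjusted p = 0.000455, limma). T and NK cells rose under BBKNN as well, to 17.9% ± 5.66 and 9.39% ± 1.4 (adjusted p = 0.00238 for each, limma). Scanorama carried no T cell label in these mice, and its NK cell label went from 4.26% ± 2.51 to 26.7% ± 6.67 (adjusted p = 0.000643, limma). Dendritic cells rose by 7.75 percentage points with BBKNN and by 6.85 with Scanorama (adjusted p = 0.00956 and 0.0198, limma). Over all alternatives in which they could be fitted, T cells, NK cells and dendritic cells were higher at 5 dpi.

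None of the 13 non-immune types passed the threshold in limma at an adjusted p under 0.05, and 1 (7.69%) did not overlap between the groups. At an unadjusted p under 0.05 limma gave 6 types over both compartments, of which the myoblasts or progenitors were the only non-immune ones, and edgeR's quasi-likelihood test on the numbers of cells called the same 4 immune types and 0 non-immune ones. Leading the non-immune types in size of difference, these myogenic cells were 7.32%, 8.58%, 16.1% and 13.9% of non-immune cells in 3.5 dpi mice A to D. They were 6.67%, 1.79% and 6.56% in 5 dpi mice A to C, all below the lowest 3.5 dpi mouse. The difference of -6.46 percentage points had an adjusted p of 0.102 in limma, and 0.00775 when limma took its spread from all 21 mice, the lowest over its 18 settings and the 1 past the threshold. MuSCs were 4.80%, 6.22%, 17.4% and 13.7% at 3.5 dpi and 9.61%, 4.33% and 15.6% at 5 dpi. Their spread within a day was wider than the difference between days of -0.690 percentage points (adjusted p = 0.907, limma).

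Taken within the myogenic cells, the balance between these Harmony labels separated the days. Myoblasts or progenitors were 60.4%, 57.9%, 48.1% and 50.2% of the MuSCs and progenitors together at 3.5 dpi, and 41.0%, 29.2% and 29.6% at 5 dpi. Both labels together were 22.0% ± 10.2 of non-immune cells at 3.5 dpi (n = 4) and 14.8% ± 8.11 at 5 dpi (n = 3), which overlapped. The names of these cells also depended on the method. BBKNN gave the MuSC name to a mean of 0.0828% of non-immune cells at 3.5 dpi and 0.165% at 5 dpi. It named 22.6% and 14.1% committed progenitors. The balance was not tested under labels other than those of Harmony.

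A finer label was deposited for 80, 89, 304 and 174 cells of 3.5 dpi mice A to D and for 182, 201 and 289 cells of 5 dpi mice A to C. It places a myogenic cell in 1 of 4 states by its position along a trajectory from quiescent MuSCs to fusing myocytes. Quiescent MuSCs were 27.5%, 32.6%, 42.8% and 37.4% of the cells with a state at 3.5 dpi and 57.1%, 65.2% and 65.7% at 5 dpi. Fusing myocytes, at the far end of the trajectory, were 31.2%, 19.1%, 29.3% and 32.2% at 3.5 dpi and 6.59%, 12.4% and 6.23% at 5 dpi. Both states were without overlap, 2 of the 4 states (50%), in opposite directions. Activated MuSCs were 31.2%, 29.2%, 22.4% and 20.1% at 3.5 dpi and 24.7%, 11.4% and 22.1% at 5 dpi. Committed myoblasts were 10.0%, 19.1%, 5.59% and 10.3% at 3.5 dpi and 11.5%, 10.9% and 5.88% at 5 dpi. The middle states overlapped between the days. In two-sided exact permutation tests the adjusted p was 0.114 for quiescent cells, 0.114 for fusing myocytes, 0.343 for activated and 0.857 for committed cells, so 0 of the 4 states (0%) passed the threshold. The quiescent difference of 27.6 percentage points had the smallest unadjusted p the design allows, 0.0286, and was the 1 state with an unadjusted p under 0.05. Adjusted over 4 states, that smallest p cannot pass the threshold for 1 state alone, so the absence of calls says little about any state. The quiescent difference depended on the denominator. As a percent of all non-immune cells, quiescent MuSCs were 2.64%, 4.01%, 10.9% and 8.11% at 3.5 dpi and 8.06%, 3.17% and 12.3% at 5 dpi, which overlapped (exact permutation p = 0.629). Fusing myocytes were 3.0%, 2.35%, 7.47% and 6.99% against 0.930%, 0.604% and 1.17% on that scale, without overlap (exact permutation p = 0.0857).

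**Figure D2:**
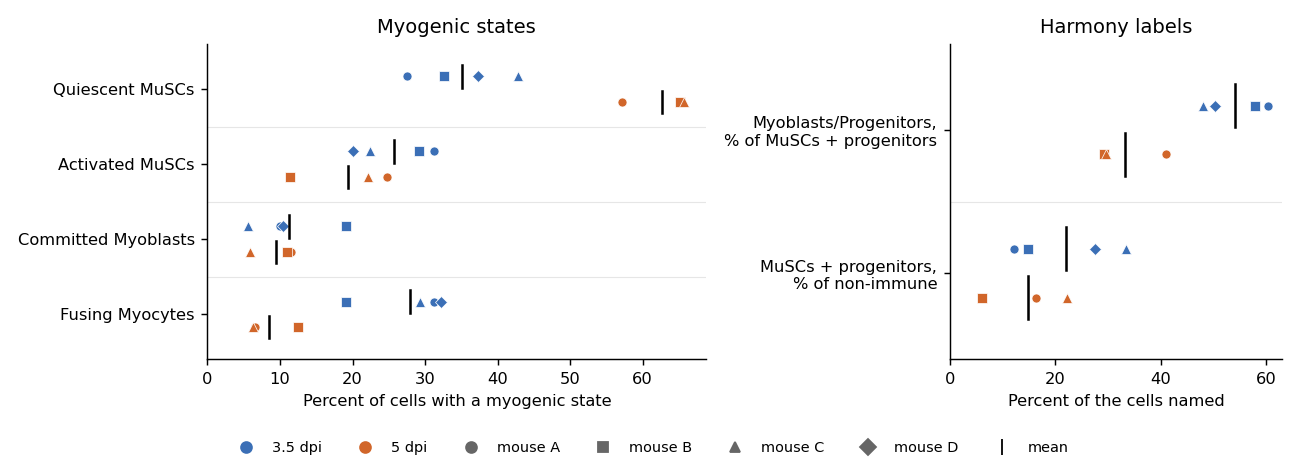
Left, percent of the cells with a myogenic state in each mouse that carried each of the 4 states; right, Harmony labels of myogenic cells as percent of the cells named on the axis. Symbols are mice, colours days and bars means; quiescent MuSCs lie at 57.1% to 65.7% at 5 dpi and 27.5% to 42.8% at 3.5 dpi, and fusing myocytes at 6.23% to 12.4% against 19.1% to 32.2%.

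None of the other non-immune types separated the days. Pro-remodeling FAPs, named for matrix remodeling, were 23.4%, 19.5%, 22.3% and 23.7% of non-immune cells at 3.5 dpi and 22.5%, 33.8% and 11.4% at 5 dpi. Adipogenic FAPs were 9.48%, 8.99%, 10.1% and 9.86% at 3.5 dpi and 11.7%, 18.2% and 6.10% at 5 dpi. Stem FAPs were 5.64%, 4.98%, 5.29% and 3.87% at 3.5 dpi and 8.06%, 7.83% and 3.51% at 5 dpi. All 3 FAP types were tight at 3.5 dpi and spread at 5 dpi, where mouse C was the lowest in each (adjusted p = 0.934, 0.741 and 0.741, limma). Within the FAPs of a mouse, the pro-remodeling label of Harmony took 60.7%, 58.3%, 59.2% and 63.3% at 3.5 dpi and 53.2%, 56.5% and 54.2% at 5 dpi, with no overlap. This split was not tested under other labels, and the FAP names depended on the method. With BBKNN the pro-remodeling label held a mean of 33.3% and 34.2% of non-immune cells at 3.5 and 5 dpi. With Scanorama it held 0.460% and 0.326%, and the adipogenic label 34.2% and 39.9%. Tenocytes, the cells of tendon, were 1.68%, 2.21%, 3.02% and 2.25% at 3.5 dpi and 3.02%, 2.73% and 0.844% at 5 dpi (adjusted p = 0.907, limma).

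Capillary endothelial cells were 25.3%, 32.1%, 15.9% and 20.4% of non-immune cells at 3.5 dpi and 15.3%, 20.5% and 27.7% at 5 dpi. Arterial endothelial cells were 3.0%, 3.6%, 1.68% and 2.12% at 3.5 dpi and 1.39%, 2.35% and 3.12% at 5 dpi. Venous endothelial cells were 0.720%, 1.38%, 1.34% and 1.5% at 3.5 dpi and 1.16%, 1.31% and 2.66% at 5 dpi. All 3 vessel types overlapped between the days (adjusted p = 0.821, 0.873 and 0.741, limma). Smooth muscle cells, the contractile cells of the vessel wall, were 2.40%, 3.87%, 1.51% and 4.12% at 3.5 dpi and 4.03%, 3.96% and 5.84% at 5 dpi (adjusted p = 0.321, limma). Neural cells were 1.56%, 1.94%, 0.923% and 1.37% at 3.5 dpi and 0.853%, 1.01% and 3.18% at 5 dpi (adjusted p = 0.907, limma). In each of the vessel types and in neural cells, 5 dpi mouse C held the highest 5 dpi share. Type IIb myonuclei, from the fastest fibers, were 10.2%, 4.98%, 2.35% and 2.25% at 3.5 dpi and 10.2%, 1.62% and 9.16% at 5 dpi. Type IIx myonuclei were 4.44%, 1.66%, 2.10% and 0.999% at 3.5 dpi and 5.50%, 0.580% and 4.35% at 5 dpi. Neither fiber type passed the threshold (adjusted p = 0.765 for each, limma).

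**Figure D3:**
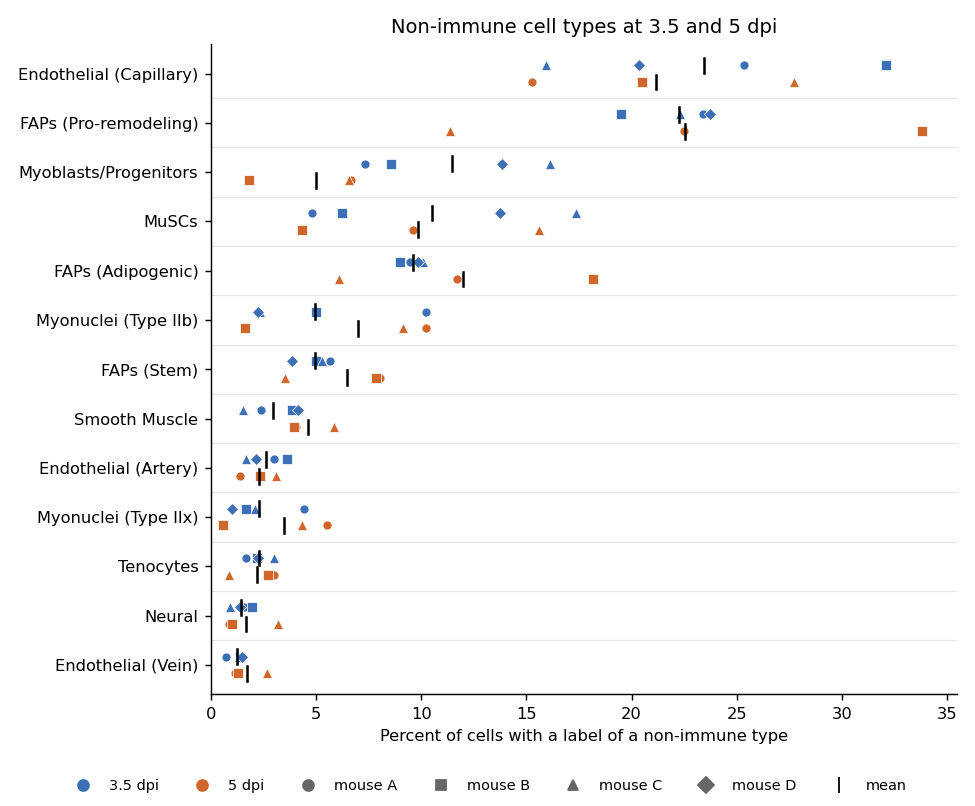
Percent of the non-immune cells of each mouse (horizontal axis) that carried each of the 13 non-immune Harmony labels (vertical axis), with symbols, colours and bars as for the immune types and no type past the threshold. Myoblasts or progenitors lie at 1.79% to 6.67% at 5 dpi, below the 7.32% to 16.1% at 3.5 dpi, and the other types overlap.

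The number of UMIs per cell, a measure of captured RNA, was compared within each type by the median over its cells in a mouse. A type needed at least 10 cells in at least 2 mice per day, which all 23 had, and a mouse with fewer cells was left out for that type. In 18 of the 23 types the mean was lower at 5 dpi, and 3 types (13%) fell at an adjusted p under 0.05 in limma, while none rose. Myoblasts or progenitors had 36912, 36589, 29414 and 25047 UMIs per cell in 3.5 dpi mice A to D and 13098, 10399 and 17898 in 5 dpi mice A to C. They had the highest level of any type at 3.5 dpi and fell by 1.23 on the log2 scale (SE 0.305, pooled over types, adjusted p = 0.00232, limma). Stem FAPs had 18512, 17936, 14992 and 20089 at 3.5 dpi and 9409, 6157 and 10369 at 5 dpi, and fell by 1.08 on the log2 scale (adjusted p = 0.00705, limma). Adipogenic FAPs had 22750, 22522, 16092 and 17305 at 3.5 dpi and 13392, 8848 and 10266 at 5 dpi, and fell by 0.86 on the log2 scale (adjusted p = 0.0418, limma). In each of these types every 5 dpi mouse was below every 3.5 dpi mouse. By comparison, capillary endothelial cells had means of 3542 and 3609 and smooth muscle cells 8042 and 9048 at 3.5 and 5 dpi, and 4 types in all (17.4%) did not overlap.

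The types of a mouse share the depth of its library, so these tests are not independent of one another. Mouse B, with the fewest reads per cell, held the lowest 5 dpi median in 19 of the 21 types measured in all 3 mice. Without it 1 call was left, the myoblasts or progenitors, and the adjusted p of stem FAPs was 0.0593 in limma (range over the alternatives 0.00513 to 0.219). The call for adipogenic FAPs was also lost without 3.5 dpi replicate A, 3.5 dpi replicate B or 5 dpi replicate C (0.189, 0.124 and 0.0704, limma; range 0.0254 to 0.363). Among the 4 mice with the fewest reads per cell, C and D at 3.5 dpi against A and B at 5 dpi, an alternative chosen after seeing the data, 2 calls were left, but mouse B remained the shallowest of these, at 20921 reads per cell against 30251 or more. With each mouse centred on its own types, so that only the difference from the other types of the mouse counted, the calls for myoblasts or progenitors and stem FAPs also held.

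**Figure D4:**
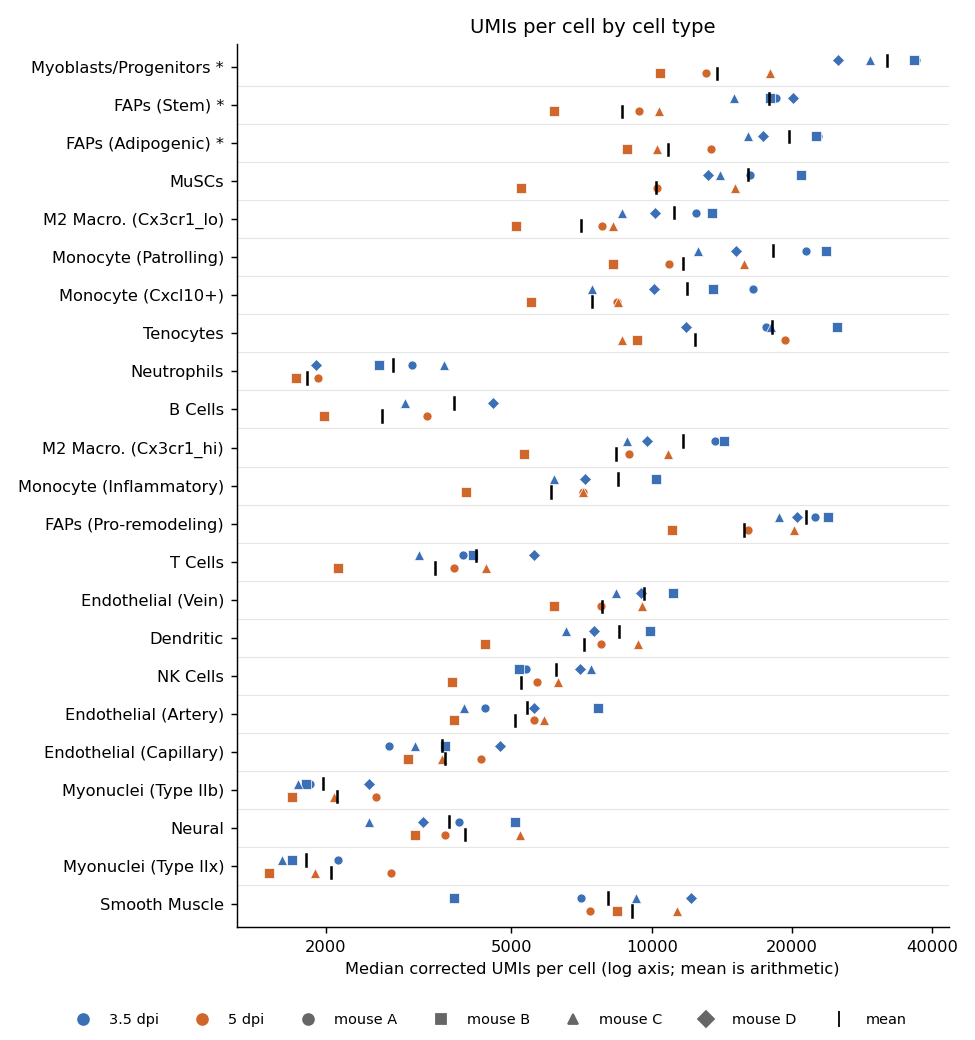
Median UMIs per cell of each of the 23 types (vertical axis, ordered by log2 difference) in each mouse, on a logarithmic horizontal axis; symbols are mice with at least 10 cells, colours days, bars arithmetic means and stars an adjusted p under 0.05 in limma. Myoblasts or progenitors lie at 25047 to 36912 at 3.5 dpi and 10399 to 17898 at 5 dpi, while smooth muscle cells at the bottom overlap.

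The number of genes detected per cell fell in 2 of the 23 types (8.7%). Stem FAPs had medians of 4545, 4248, 4252 and 4509 genes at 3.5 dpi and 3011, 2320 and 3298 at 5 dpi, and fell by 0.62 on the log2 scale (adjusted p = 0.020, limma). Myoblasts or progenitors had 5358, 5639, 5312 and 4669 genes at 3.5 dpi and 3490, 3150 and 4308 at 5 dpi, and fell by 0.53 (adjusted p = 0.0493, limma). Both types were also lower in UMIs, and the days did not overlap. Neither type had enough cells with 4000 to 8000 UMIs in enough mice for a comparison at similar UMIs. Both calls were lost without 3.5 dpi replicate A, 5 dpi replicate A or 5 dpi replicate B, and that for myoblasts or progenitors also without 3.5 dpi replicate B or C (adjusted p from 0.0586 to 0.173 in these limma fits; range over all alternatives 0.0124 to 0.219).

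The same order was seen inside the finer myogenic states, described here without a test. Fusing myocytes had median UMIs of 41973, 48249, 39266 and 26110 at 3.5 dpi and 9265, 13243 and 20357 at 5 dpi. Committed myoblasts had 49355, 38762, 34285 and 28526 at 3.5 dpi and 13100, 12913 and 18599 at 5 dpi. Neither state overlapped between days, nor did activated MuSCs, at 21002 to 31167 against 5195 to 17754. Quiescent MuSCs did overlap, with 15053 to 24617 UMIs at 3.5 dpi and 10256, 5171 and 15134 at 5 dpi.

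The percent columns give the share of a cell's UMIs from a named class of genes, averaged here over the cells of a type in a mouse. Of 253 combinations of 11 classes and 23 types, 38 (15%) passed the threshold in limma with adjustment over all of them, 12 higher (4.74%) and 26 lower (10.3%) at 5 dpi. With each mouse centred on its own types, 5 were higher and 5 lower. The protein-coding class accounted for 20 of the 26 lower ones. The gene lists behind the columns were not given in the sources used here, so the classes are read by their names.

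In the ribosomal class 5 of 23 types (21.7%) passed the threshold. FAPs and tenocytes were lower at 5 dpi (4 types, 17.4%) and T cells higher (1 type, 4.35%). Whether past it or not, 7 types (30.4%) were lower and 2 (8.7%) higher without overlap. Among the lower were arterial and capillary endothelial cells, with means of 11.2% and 10.9% against 9.42% and 8.87% at 5 dpi. Their adjusted p was 0.0802 and 0.0775 in limma. Type IIx myonuclei were also lower, at 10.1% against 8.78% (adjusted p = 0.196, limma). Pro-remodeling FAPs gave 15.2%, 15.2%, 13.6% and 15% of their UMIs to this class at 3.5 dpi and 11.3%, 11.4% and 11.7% at 5 dpi (difference -3.28 percentage points, adjusted p = 0.00896, limma). Adipogenic FAPs gave 15.3%, 17.4%, 15.1% and 16.4% against 12.8%, 12.2% and 13% (-3.41, adjusted p = 0.0166, limma). Tenocytes gave 13.5%, 13.3%, 13.5% and 12.9% against 11%, 10.4% and 11.1% (-2.46, adjusted p = 0.00896, limma). In each of these 3 mesenchymal types every 5 dpi mouse was below every 3.5 dpi mouse. Stem FAPs gave 13.7%, 14.7%, 14.5% and 16.0% against 13.3%, 11.6% and 11.6% (-2.54, adjusted p = 0.0461, limma), a call lost in 5 of the 7 fits that left out a mouse (3.5 dpi replicates B, C and D, 5 dpi replicates B and C; 0.0734 to 0.136, limma; range over all alternatives 0.0107 to 0.199). T cells gave 17.4%, 18.3%, 20.2% and 17.5% at 3.5 dpi and 23.1%, 21.1% and 22.5% at 5 dpi, a rise of 3.90 percentage points (adjusted p = 0.0223, limma). Without 5 dpi replicate C their adjusted p was 0.0716 (range over the alternatives 0.0110 to 0.406). The T cell label also held different cells by mouse. BBKNN kept the name for 81.9%, 84.8%, 77.2% and 55.6% of them at 3.5 dpi and 86% to 88.1% at 5 dpi. It named 8.51%, 8.86%, 1.84% and 22.2% of them stem endothelial cells at 3.5 dpi, against 2% or less at 5 dpi. The part of this mix in the result was not tested. NK cells, with means of 21% and 22.3%, and dendritic cells, with 17.4% and 17.5%, did not pass the threshold.

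The lincRNA class, long intergenic noncoding RNAs, had a higher mean at 5 dpi in 20 of 23 types and rose in 3 (13%). MuSCs had 1.13%, 0.90%, 0.930% and 0.721% at 3.5 dpi and 1.94%, 1.89% and 2.66% at 5 dpi (rise of 1.24 percentage points, adjusted p = 0.00509, limma). Myoblasts or progenitors had 0.575%, 0.645%, 0.674% and 0.569% against 1.27%, 1.34% and 1.84% (rise of 0.870, adjusted p = 0.00896, limma). In both myogenic types the lowest 5 dpi mouse was well above the highest 3.5 dpi mouse, and no fit without 1 mouse lost either call. Dendritic cells had 1.38%, 1.28%, 1.72% and 1.54% against 2.06%, 2.07% and 2.89% (adjusted p = 0.0375, limma), and this call was lost without 3.5 dpi replicate A, B or D or 5 dpi replicate B or C (0.0667 to 0.0997, limma; range over all alternatives 0.0112 to 0.238). Mouse C had the highest 5 dpi value in 18 of the 21 types measured in all 3 mice. It also had the highest saturation, at 62.9%, and the fewest reads in cells, at 77.6%, and the part of these in the result was not tested. Within single states the median lincRNA share was 0.556% to 0.792% at 3.5 dpi and 1.47%, 1.64% and 2.38% at 5 dpi in quiescent MuSCs. In activated MuSCs it was 0.454% to 0.579% against 1.52%, 1.38% and 2.05%, again with no overlap. Fusing myocytes overlapped, since mouse A at 5 dpi had 0.411% against 0.386% to 0.546% at 3.5 dpi.

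**Figure D5:**
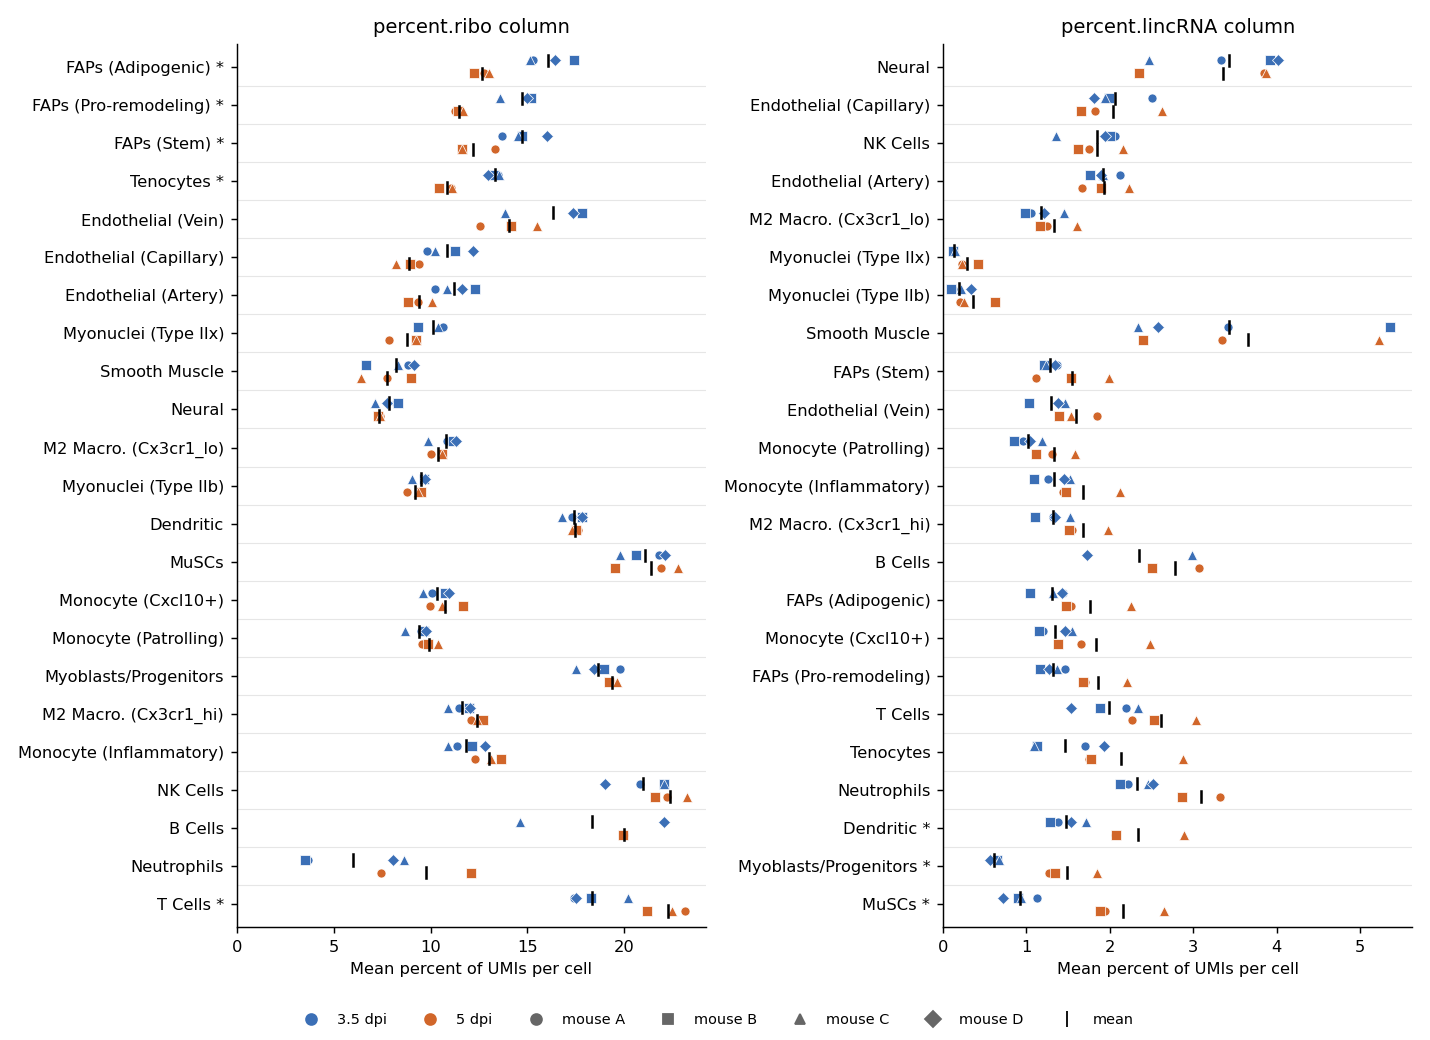
Mean percent of UMIs per cell in the ribosomal column (left) and the lincRNA column (right), for each of the 23 types ordered by the difference between days; symbols are mice, colours days, bars means and stars an adjusted p under 0.05 in limma over all columns. FAPs and tenocytes lie lower at 5 dpi in the ribosomal class and T cells higher, and MuSCs reach 1.89% to 2.66% in the lincRNA class against at most 1.13% at 3.5 dpi.

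Transcription factor genes had a higher mean at 5 dpi in all 23 types, without overlap in 11 (47.8%), but only 2 (8.7%) passed the threshold. MuSCs had 3.07%, 2.99%, 3.05% and 2.62% against 3.26%, 4.30% and 4.04% (adjusted p = 0.0182, limma). Venous endothelial cells had 3.51%, 4.39% and 3.56% in 3.5 dpi mice B to D, with too few cells in mouse A, against 4.69%, 5.15% and 4.45% (adjusted p = 0.0404, limma). Both calls were lost without 3.5 dpi replicate D, 5 dpi replicate B or 5 dpi replicate C, and the second also without 3.5 dpi replicate B (0.0611 to 0.206, limma). Over the alternatives the range was 0.00140 to 0.248 for MuSCs and 0.020 to 0.324 for venous cells.

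The mitochondrial class rose in 3 types (13%), all of them with few UMIs per cell. Neutrophils had 2.62%, 2.92%, 6.73% and 4.50% at 3.5 dpi and 8.54% and 10.1% in 5 dpi mice A and B, with too few cells in mouse C (rise of 5.13 percentage points, adjusted p = 0.000150, limma). With a stricter filter on cells, which removed those under 1000 genes, under 2000 UMIs or over 15% mitochondrial, the difference was 1.19 percentage points (adjusted p = 0.323, limma; range over the alternatives 6.51e-06 to 0.323). The 3 criteria were applied together, so their parts were not separated. The neutrophil label also held different cells by mouse: BBKNN kept the name for 94.7%, 100%, 13.7% and 45.2% of them at 3.5 dpi and for 29.4% and 8.47% in 5 dpi mice A and B, and gave most of the others monocyte or macrophage names. The mitochondrial share was lowest in the mice with the highest of these percents, and the part of this mix in the result was not tested. Type IIb myonuclei had 0.459%, 1.02%, 0.656% and 0.167% against 0.776%, 3.09% and 2.60% (adjusted p = 0.00779, limma). Type IIx myonuclei had 0.641%, 0.191% and 0.595% in 3.5 dpi mice A to C, with too few cells in mouse D, against 0.872%, 1.86% and 1.60% (adjusted p = 0.0223, limma). The IIb call was lost without 3.5 dpi replicate C, at 0.0581, and the IIx call without 3.5 dpi replicate B or C or 5 dpi replicate B or C, at 0.0581 to 0.164 in limma. With UMIs pooled over the cells of a type both were lost as well, at 0.405 and 0.477 in limma, over ranges of 4.18e-06 to 0.405 and 0.00865 to 0.734.

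The heat shock class was lower in myonuclei and higher in neutrophils, 3 types (13%) in all. Type IIx myonuclei had 1.48%, 2.15% and 1.32% in 3.5 dpi mice A to C against 0.983%, 0.966% and 0.818% (adjusted p = 0.0283, limma), and type IIb 1.03%, 1.20%, 1.29% and 1.20% against 0.877%, 0.724% and 0.772% (adjusted p = 0.0404, limma). Neutrophils had 0.276%, 0.189%, 0.580% and 0.494% against 1.03% and 0.860% (adjusted p = 0.0223, limma), with the same difference in cells between mice under that label. This call passed in 10 of its 16 settings (range 0.0137 to 0.376, limma). In 20 of the 21 types measured in all 3 mice, 5 dpi mouse A had the highest 5 dpi value and in 20 mouse C had the lowest, so the order of the 5 dpi mice was nearly the same across types. The IIx call was lost without 3.5 dpi replicate B or 5 dpi replicate B (0.0968 and 0.0734, limma; range 0.00532 to 0.324), and the IIb call without any of the 4 mice at 3.5 dpi or without 5 dpi replicate B (0.0529 to 0.125, limma; range 0.00393 to 0.269).

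The protein-coding class was lower in mean at 5 dpi in all 23 types, without overlap in 21 (91.3%), and 20 types (87%) fell at the adjusted threshold, by 1.71 to 4.39 percentage points. The 5 with the largest falls were venous endothelial cells, MuSCs, neutrophils and capillary and arterial endothelial cells. MuSCs had 91.5%, 92.4%, 93.5% and 94.1% at 3.5 dpi and 89.2%, 88.0% and 89.6% at 5 dpi (-3.96 percentage points, adjusted p = 0.0137, limma). Neutrophils had 92.3% to 92.6% against 88.0% and 89.4% (-3.74, adjusted p = 0.00896, limma), again under a label whose cells differed between mice, and with the stricter filter the adjusted p was 0.342. Venous cells had 90.6%, 92.8% and 93.4% against 86.6%, 89.9% and 87.1% (-4.39, adjusted p = 0.0349, limma), capillary cells 89.2% to 92.3% against 85.3% to 88.9% (-3.67, adjusted p = 0.0461), and arterial cells 89.7% to 92.4% against 86.9% to 88.7% (-3.52, adjusted p = 0.0202). The percent of reads in cells also separated the days, so its part in this fall cannot be told apart from that of the day and was not tested. With each mouse centred on its own types, MuSCs, capillary and arterial cells no longer passed (adjusted p = 0.240, 0.559 and 0.503, limma; ranges over the alternatives 0.000485 to 0.240, 0.00273 to 0.559 and 0.00356 to 0.503). Leaving out 5 dpi replicate C lost the 3 endothelial calls (0.103, 0.151 and 0.0793 for venous, capillary and arterial cells, limma), and the venous and capillary calls were also lost without 3.5 dpi replicate C or D or 5 dpi replicate A.

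Of the rarer classes, bidirectional promoter lncRNAs rose in 2 types (8.7%). Type IIx myonuclei had 0.0143%, 0.0104% and 0.0157% in 3.5 dpi mice A to C against 0.0327%, 0.0412% and 0.0270% (adjusted p = 0.00896, limma), but the median cell gave an adjusted p of 0.733 (range over the alternatives 0.000253 to 0.733). Cxcl10+ monocytes had 0.0121%, 0.0125%, 0.0102% and 0.0104% against 0.0164%, 0.0159% and 0.0182% (adjusted p = 0.0404, limma), a call lost in 6 of the 7 fits without 1 mouse, all but that without 5 dpi replicate A (0.060 to 0.0997, limma). No type passed for snoRNA, miRNA, snRNA or antisense genes (0% each). The types with the smallest p were myoblasts or progenitors for snoRNA, at 0.00196% and 0.00404% of UMIs at 3.5 and 5 dpi (adjusted p = 0.0687, limma), for miRNA (adjusted p = 0.151) and for antisense genes (0.0556% and 0.0761%, adjusted p = 0.106), and Cxcl10+ monocytes for snRNA (adjusted p = 0.180). At an unadjusted p under 0.05 limma gave 1 type for each of snoRNA, miRNA and snRNA and 3 for antisense genes.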

How the data were processed

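Droplet single-cell RNA sequencing of tibialis anterior muscle was used, 1 table per mouse, with groups taken from the injury label of each sample. The authors aligned reads to mm10 with Cell Ranger 3.1.0, removed ambient RNA with SoupX, filtered cells with Seurat (3.1.5 in the submitters' processing notes) and removed doublets with DoubletFinder. The deposited UMI totals per cell are expected counts, since the ambient correction left them non-whole. The deposited numbers of genes and reads per cell are counts. The percent values deposited by the authors are shares of a cell's UMIs or of a library's reads, and the deposited fraction is the ambient share of a library. Between 27305762 and 70730171 UMIs per mouse were available.

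Shares of the 23 Harmony types were taken within 10 immune and 13 non-immune types after leaving out cells without a label. Arcsine square root shares, log2 medians of UMIs and genes, and arcsine square root means of percent columns were fitted with limma 3.58.1 (R 4.3.3), with 5 dpi against 3.5 dpi as the only term and two-sided p-values adjusted by the Benjamini-Hochberg method at 0.05. Myogenic states and the immune share were tested by two-sided exact permutation (Python 3.11.15, numpy 2.4.6, pandas 2.3.3), and edgeR 4.0.16 was an alternative. Types needed at least 10 cells in at least 2 mice per group. The limma fits were tested on simulated data. Every type's share is named. For UMIs and genes the types past the threshold are named, and for each percent column those past it (the 5 largest differences where more passed, the smallest p where none did). The comparison, members and lists were chosen with earlier results of these data known. Figures used matplotlib 3.10.9.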

Additional observations from a re-analysis of the deposited data

Results flagged for a closer look

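Of 55 sets of 4 values at 3.5 dpi that were examined, 4 held a mouse far from the other 3, where chance flags about 1 in 20 groups, or 2.75 here. NK cells were 3.05% of immune cells in mouse C against at most 0.546% in the others, and Cx3cr1_lo M2 macrophages were 15.5% in the same mouse against 18.8% or more. Mouse C also gave 13.6% of UMIs to the ribosomal class in pro-remodeling FAPs, against 15% or more in the others. In mouse D, transcription factor genes took 2.62% of UMIs in MuSCs against 2.99% or more.

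Cells without a Harmony label stood outside the comparisons. They were 2.85% to 4.68% of the cells in the 7 mice, against at most 0.146% in an uninjured mouse, 1234 cells in all. BBKNN named 567 of them Cx3cr1_hi M2 macrophages, 232 patrolling monocytes and 123 infiltrating monocytes. Of the Cx3cr1_hi cells, 21, 4, 99 and 51 came from 3.5 dpi mice A to D and 171, 170 and 51 from 5 dpi mice A to C. Of the patrolling monocytes, 47, 38, 76 and 42 came from 3.5 dpi and 10, 15 and 4 from 5 dpi.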

How the results depend on the processing

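The calls for T cells, NK cells and patrolling monocytes held in every limma and edgeR fit in which those labels existed, including each fit without 1 mouse, where the shares gave 3 to 4 calls. The exact permutation test, adjusted over all types, gave 0 calls for shares, UMIs, genes and percent columns, since its smallest p is 0.0286. With all cells as denominator the shares gave 6 calls in limma, 2 higher and 4 lower, of which 3 were calls of the main fit. Leaving out 1 mouse gave 1 to 4 calls for UMIs, 0 to 3 for genes and 16 to 48 for percent columns. For genes, the calls were 1 with all 21 mice in the fit, 0 in the 4 mice with the fewest reads per cell, chosen after seeing the data, 4 with reads per cell as a covariate, 1 with each mouse centred on its own types, 5 with means over cells and 0 at 4000 to 8000 UMIs, where neither called type could be fitted. For percent columns they were 18 with all 21 mice, 24 in those 4 mice, 10 with each mouse centred and 1 in the UMI window, where 88 combinations could be fitted. The labels do not say whether mice of the same letter were handled together. The paper reports collecting mice from several time points together, but the labels do not say which. Deviations of same-letter mice from their day's mean had correlations of 0.222, 0.140 and -0.0842 for the shares of mice A, B and C. For UMIs, genes and percent columns these correlations were negative for every letter, from -0.0191 to -0.476. With the letter as a replicate block, which leaves out 3.5 dpi mouse D, the calls were 3 for shares, 1 for UMIs, 0 for genes and 5 for percent columns (5 higher and 0 lower), and immune cells differed by -20.7 percentage points.

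Directions that turned belonged to results past no threshold in either setting. In percentage points, they were arterial cells (-0.729 to 0.132 without 1 mouse, 0.467 of all cells), capillary cells (-5.54 to 0.688, 4.29 of all cells), venous cells (-0.00176 to 0.748, -0.159 with BBKNN), MuSCs (-3.56 to 2.07, 0.378 with the replicate block, 2.27 of all cells, 0.0825 with BBKNN), neural cells (-0.514 to 0.650), neutrophils (-0.309 to 0.0797), tenocytes (-0.502 to 0.587, 0.0568 with the stricter filter, 0.339 of all cells, 0.492 with BBKNN), adipogenic FAPs (-0.696 to 5.34), pro-remodeling FAPs (-5.31 to 5.90, -0.134 with Scanorama), Cx3cr1_hi M2 macrophages (12.2 with BBKNN, 0.826 with Scanorama), Cx3cr1_lo M2 macrophages (0.177 with Scanorama) and committed myoblasts (-3.69 to 0.810). On log scales, neural cells gave -0.0235 and pro-remodeling FAPs -0.114 with a centred log ratio and -0.0497 with edgeR. The medians over cells were -0.000386 for snoRNA and -0.000412 for miRNA in myoblasts or progenitors, and 0 for snRNA in Cxcl10+ monocytes. Some names held classes of very different size by method, so those turns do not compare the same cells. MuSCs were 10.5% and 9.84% of non-immune cells with Harmony and 0.0828% and 0.165% with BBKNN. Pro-remodeling FAPs were 22.2% and 22.5% with Harmony and 0.460% and 0.326% with Scanorama. Cx3cr1_lo M2 macrophages were 18.2% and 14.3% of immune cells with Harmony and 0.239% and 0.416% with Scanorama. The causes of the changes in direction were not tested. Depth limits the types with few cells: B cells, neutrophils, venous cells and type IIx myonuclei each lacked 10 cells in at least 1 mouse.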
